A study of Mus musculus with 16 samples.

Results

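Zdbf2 and 8 other imprinted protein-coding genes (Peg3, Peg10, Ndn, Magel2, Nnat, Nap1l5, Igf2 and Plagl1) are described here across 4 groups of mice, 9 of the 54532 genes that were counted. They were picked by gene symbol: Zdbf2 was chosen for its higher level with nicotinamide riboside in hTau.P301S mice, and the 8 others as imprinted genes to set beside it. The difference that chose Zdbf2 is therefore given below as a description without a test. RNA from hippocampus was sequenced in 16 mice, 4 per group, on a design that crosses genotype with treatment. The WT group and the hTau.P301S group drank vehicle water; the WT + NR group and the hTau.P301S + NR group drank water with 6 mM nicotinamide riboside (NR), a precursor of the coenzyme NAD+. Treatment lasted 3 months, from 12 to 15 months of age by the labels. The study's text gives younger ages and, in another passage, a shorter treatment. In hTau.P301S mice a Thy1 promoter drives human tau carrying the P301S mutation, and Thy1 is a promoter of neurons, so the model rests on tau made from a transgene in neurons. All groups then went through behavioral tests before tissue was taken, and each library came from a separate mouse.

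An imprinted gene is read mainly from the chromosome copy inherited from a single parent. DNA methylation laid down in the germline marks the copies differently. Many imprinted genes of the brain are read from the paternal copy, most of the genes here among them. Several are at their highest in hypothalamic neurons, where they are known for roles in growth, feeding and parental care. The deposited counts add reads from both copies, so they give the level of each gene and not its imprint.

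The genes lie on 5 chromosomes (GENCODE M21, GRCm38). Zdbf2 (ENSMUSG00000027520), which encodes a zinc finger protein of the DBF type, spans 63273265 to 63314576 on the plus strand of chromosome 1. Peg3, a zinc finger protein gene, spans 6703892 to 6730431 on the minus strand of chromosome 7. Ndn (62346569 to 62350262) and Magel2 (62377010 to 62381640), both of the MAGE family and of the region that is lost in Prader-Willi syndrome, and Igf2 (142650766 to 142666816), a fetal growth factor, lie on the same chromosome. Peg10, a gene derived from a retrotransposon (4747306 to 4760517), and Nap1l5, a relative of the nucleosome assembly proteins (58905233 to 58907076), lie on chromosome 6. Nnat, a small membrane protein of neurons, spans 157560078 to 157562522 on chromosome 2, and Plagl1, a zinc finger transcription factor, spans 13060504 to 13131694 on chromosome 10. Nap1l5 lies within the span of Herc3 and Nnat within that of Blcap, each on the opposite strand, and the noncoding Gm32061 overlaps Ndn and Magel2 on the opposite strand. Igf2 overlaps the protein-coding Gm49394 and the microRNA gene Mir483 on its own strand, and Igf2os on the opposite strand. The strand setting of the counting is not given in the sources used here, so reads in bases shared with these partners cannot be told apart.

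The 250 bases before each start in the RefSeq table (GRCm38.p6) were read for 8 of the 9 genes, 12 windows in all; Peg10 had no entry. They were searched on both strands for TGCCGC, the hexamer bound in its methylated form by ZFP57, a protein that keeps imprints in the embryo. The hexamer stood in 8.68% of all 32851 windows of this length and in 3 of the 12 windows read here, belonging to Zdbf2, Nap1l5 and Plagl1. Both Zdbf2 starts are shown, because they differ in the hexamer and in CpG content, and the windows of Peg3 and Nap1l5 are shown because these members had the levels most like Zdbf2 within the groups. Capitals mark TGCCGC or its reverse complement, and all are written 5′ to 3′ on the strand of the gene. The first Zdbf2 window is chr1:63200108-63200357 (plus strand), within the span of Gpr1; the second, chr1:63273019-63273268 (plus strand), ends within a few bases of the GENCODE start. The Peg3 window is chr7:6730420-6730669 and the Nap1l5 window chr6:58907127-58907376, both on the minus strand.
Zdbf2 upstream start: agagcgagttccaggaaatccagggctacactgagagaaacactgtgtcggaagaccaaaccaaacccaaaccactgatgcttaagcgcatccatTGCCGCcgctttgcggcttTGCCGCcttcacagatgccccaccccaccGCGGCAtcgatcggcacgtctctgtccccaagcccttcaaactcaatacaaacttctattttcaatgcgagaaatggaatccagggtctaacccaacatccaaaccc
Zdbf2 main start: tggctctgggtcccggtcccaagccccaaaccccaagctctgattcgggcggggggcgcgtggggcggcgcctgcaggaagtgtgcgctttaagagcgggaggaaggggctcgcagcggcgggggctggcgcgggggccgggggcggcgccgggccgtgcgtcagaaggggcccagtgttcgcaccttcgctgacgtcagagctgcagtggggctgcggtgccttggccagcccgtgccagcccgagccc
Peg3: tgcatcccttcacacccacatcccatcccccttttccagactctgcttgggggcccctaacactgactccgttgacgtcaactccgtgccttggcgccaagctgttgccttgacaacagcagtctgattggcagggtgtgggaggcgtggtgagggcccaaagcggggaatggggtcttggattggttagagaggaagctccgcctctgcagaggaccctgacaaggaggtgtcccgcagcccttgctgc
Nap1l5: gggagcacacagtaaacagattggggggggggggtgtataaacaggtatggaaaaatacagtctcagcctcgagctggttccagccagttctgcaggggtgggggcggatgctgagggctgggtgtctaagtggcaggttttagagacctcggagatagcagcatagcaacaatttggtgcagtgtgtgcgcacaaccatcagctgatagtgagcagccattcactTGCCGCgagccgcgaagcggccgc
The upstream Zdbf2 window held 3 copies of the hexamer, 2 on the gene's strand and 1 on the other, and 2 or more copies stood in 0.874% of all windows. The window at the main start held none, but had 26 CpG dinucleotides, a number reached by 9.59% of all windows. Nap1l5 had 1 copy close to its start, and Peg3 had none with 8 CpG dinucleotides, against a median of 6 over all windows. These matches describe the letters of the windows, and binding was not tested.

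Each library held 16490300 to 21915400 counts. Levels are given as CPM, the counts scaled to a library total of 1000000 after adjustment of the totals by the trimmed mean of M values (TMM). Libraries WT 2 and WT + NR 3 stood apart by their hypothalamic genes: the summed level of 13 hypothalamic markers was 1313 CPM and 871 CPM there and 4.99 to 75.2 CPM in the 14 others, with Avp and Oxt, the genes of vasopressin and oxytocin, making up most of the sum. Library hTau.P301S 1 had 14.4% of its counts on mitochondrial genes, against 4.48% to 7.07% in the others, and the fewest genes detected. The summed level of 11 hippocampal neuron markers was 564 to 1459 CPM and no marker was at 0 in all mice of a group; it was lowest in WT + NR 3, WT 2 and hTau.P301S + NR 4. In bulk tissue, fewer cells of a type and less RNA per cell cannot be told apart.

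Zdbf2 was lowest in the hTau.P301S group and highest on average in the hTau.P301S + NR group. In the hTau.P301S mice it stood at 9.15, 24.7, 14.7 and 15.5 CPM, and in the hTau.P301S + NR mice at 58.5, 47.3, 37.3 and 54.1 CPM. Every NR-treated mouse of this genotype was thus above every vehicle mouse, which is the pattern the gene was chosen on. The group means were 16.01 ± 6.46 CPM and 49.3 ± 9.26 CPM (SD, n = 4), and the log2 fold change was 1.62 (SE 0.30), or 1.44 without hTau.P301S 1. In WT mice the levels were 32.3, 40.9, 39.3 and 28.9 CPM (mean 35.4 ± 5.68), and in WT + NR mice 13.8, 32.0, 80.1 and 24.3 CPM (mean 37.5 ± 29.4). The highest Zdbf2 level of all 16 mice was that of WT + NR 3, a library that stands apart, and the 3 other WT + NR mice ranged only from 13.8 to 32.0 CPM. Ordered by group mean the sequence was hTau.P301S, WT, WT + NR, hTau.P301S + NR; WT and WT + NR overlapped, as did WT + NR with hTau.P301S and with hTau.P301S + NR. WT and hTau.P301S + NR overlapped as well, since hTau.P301S + NR 3 lay below WT 2 and WT 3.

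**Figure D1:**
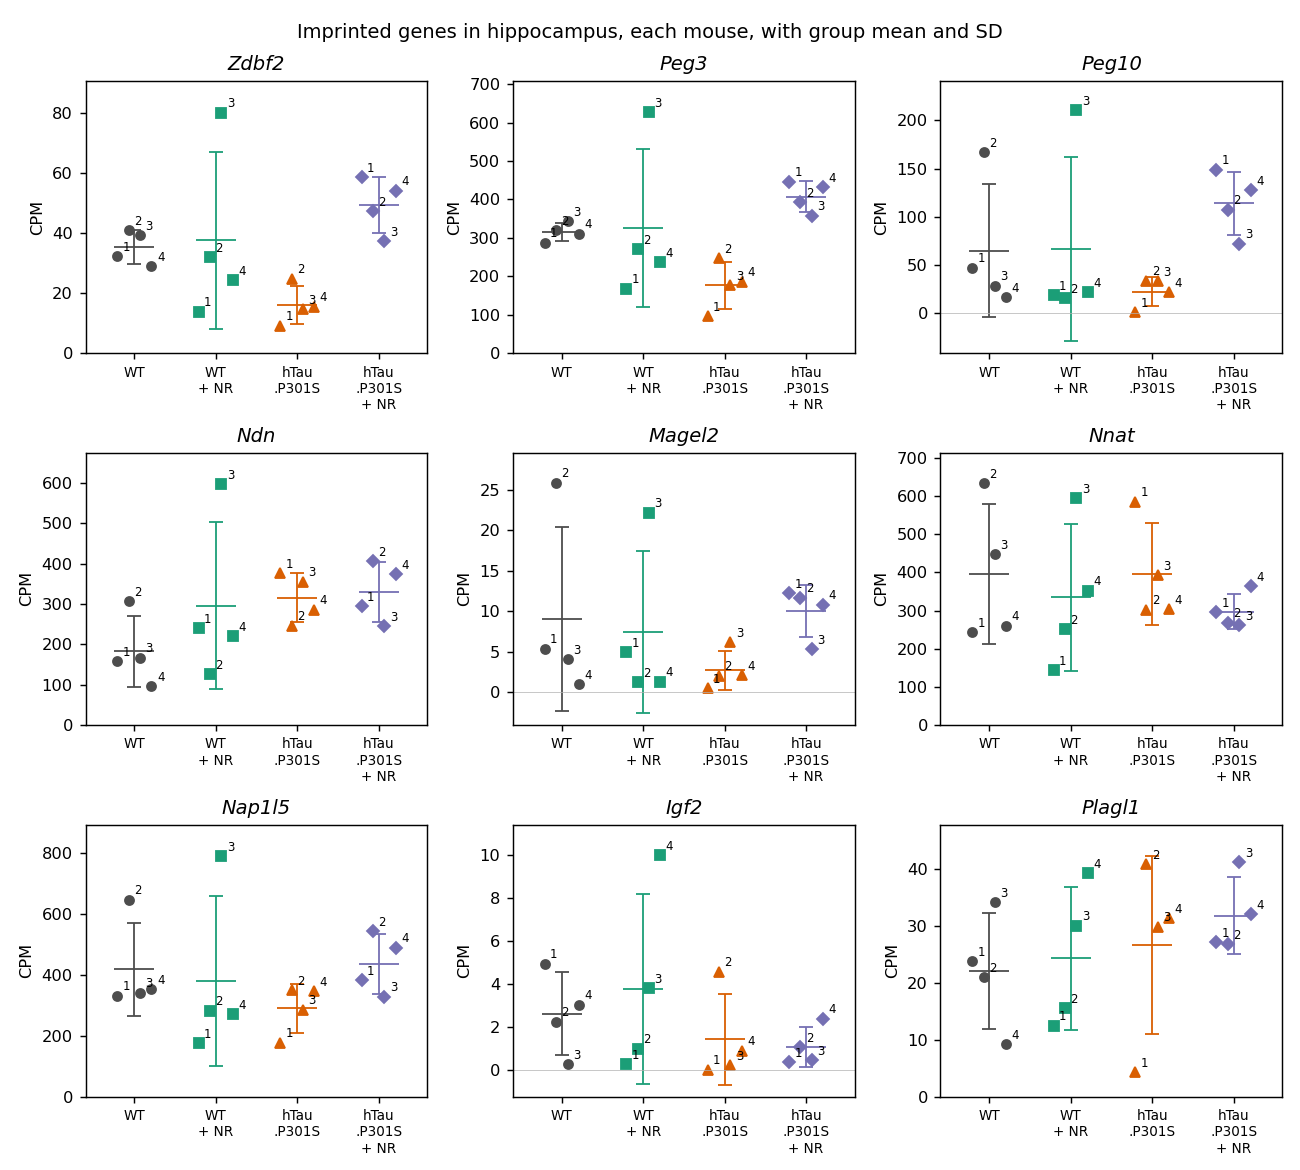
Level of each of the 9 imprinted genes in CPM (vertical axis, linear) for every mouse, by group (horizontal axis). Points are mice with their replicate number, the horizontal bar is the group mean and the whisker the SD; for Zdbf2 the 4 hTau.P301S mice sit between 9.15 and 24.7 CPM, below the 37.3 to 58.5 CPM of the hTau.P301S + NR mice, and WT + NR 3 is the highest point for Zdbf2, Peg3, Peg10, Ndn and Nap1l5.

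Peg3 followed Zdbf2 closely. It stood at 95.7, 247, 176 and 186 CPM in hTau.P301S mice and at 446, 393, 358 and 432 CPM in hTau.P301S + NR mice. The groups did not overlap, and within both of these hTau.P301S groups the order of the mice was the order seen for Zdbf2. The log2 fold change was 1.21 (SE 0.27), with an adjusted p of 0.306 in edgeR's quasi-likelihood test with Benjamini-Hochberg adjustment over 16386 genes, so Peg3 did not pass the threshold of 0.05. By DESeq2 it passed, with an adjusted p of 0.012, and in edgeR it passed without hTau.P301S 1, the library with the high mitochondrial share, with a log2 fold change of 1.02 and an adjusted p of 0.042.

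Peg10 had the largest difference among the 9 genes. In hTau.P301S mice it stood at 1.11, 34.0, 33.4 and 21.9 CPM and in hTau.P301S + NR mice at 149, 107, 72.4 and 128 CPM. Again the groups did not overlap, and hTau.P301S 1, with 13 counts, was far below the rest. The log2 fold change was 2.33 (SE 0.76) with an edgeR adjusted p of 0.367; without hTau.P301S 1 it was 1.95 with an adjusted p of 0.038. Magel2 stood at 0.513, 2.07, 6.16 and 2.11 CPM against 12.2, 11.7, 5.32 and 10.8 CPM. Here hTau.P301S 3 lay above hTau.P301S + NR 3, so that the groups overlapped. Its log2 fold change was 1.87 (SE 0.61, adjusted p = 0.367), on as few as 6 counts in a library.

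The 5 others differed less between these groups, and all 5 overlapped. Nap1l5 had a log2 fold change of 0.59 (SE 0.26, edgeR adjusted p = 0.367), from 290 ± 80.3 CPM to 436 ± 97.8 CPM (SD, n = 4). Ndn was at 316 ± 60.8 CPM and 329 ± 73.7 CPM, a log2 fold change of 0.05 (SE 0.23), and it lies beside Magel2. Nnat was at 396 ± 133 CPM and 297 ± 46.8 CPM, a log2 fold change of -0.42 (SE 0.26). Plagl1 gave 0.26 (SE 0.53) and Igf2 gave -0.44 (SE 1.13) on the log2 scale. For Igf2, hTau.P301S 1 had 0 counts, which allows up to 0.256 CPM (3 counts, counting error only). In that mouse and 8 others Igf2 was under 2 CPM, so that its fold changes rest on few reads.

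Of the 8 genes set beside Zdbf2, 0 passed the edgeR call in this comparison (an adjusted p under 0.05 together with a log2 fold change beyond 0.5 in either direction), against 0.0061% of all genes. DESeq2 called 1 of the 8, Peg3, against 243 of the 29160 genes it tested. At an unadjusted p under 0.05 there were 3 of 8 (Peg3, Peg10 and Magel2), against 12.9% of all genes in either direction. In 2 of 8, Peg3 and Peg10, the groups did not overlap, against 11.9% of all genes. The median log2 fold change over the 8 was 0.42, and over all genes tested it was -0.03. On the log2 scale 6 of the 8 were above 0 and 2 below.

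**Figure D2:**
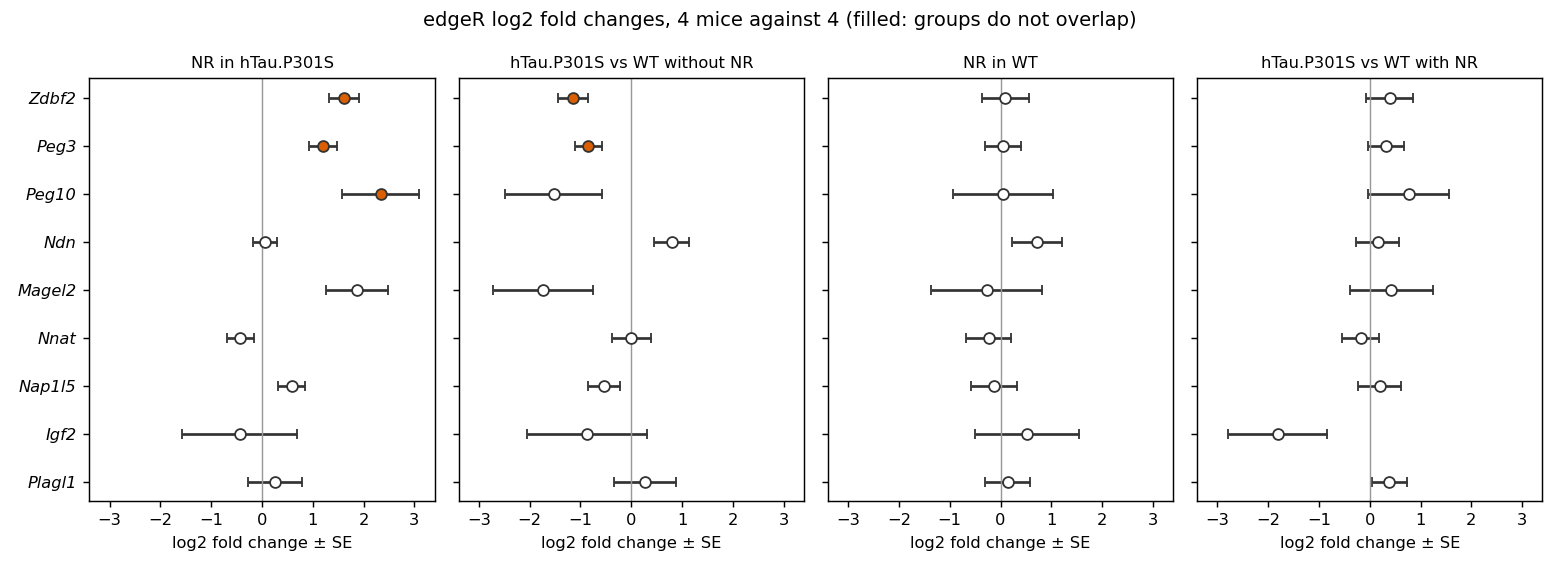
log2 fold change (horizontal axis) with its SE for the 9 imprinted genes (rows) in the 4 pairwise comparisons, 4 mice against 4, from edgeR. Filled points mark groups that do not overlap: Zdbf2, Peg3 and Peg10 for NR in hTau.P301S mice, and Zdbf2 and Peg3 for hTau.P301S against WT without NR; the NR differences in WT mice all lie within about 0.71 of 0.

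Without NR, Zdbf2 and Peg3 were the members in which every hTau.P301S mouse lay below every WT mouse. This comparison shares its 4 hTau.P301S mice with the one above, so a low level in those mice enters both. The Zdbf2 log2 fold change of hTau.P301S against WT was -1.14 (SE 0.29), given without a test because those mice were part of its choice. Peg3 was at 288, 320, 344 and 311 CPM in WT mice against the 95.7 to 247 CPM given above, a log2 fold change of -0.84 (SE 0.27, edgeR adjusted p = 0.598). Peg3 did not pass the threshold, and without hTau.P301S 1 and WT 2 the values for Zdbf2 and Peg3 were -0.88 and -0.64. Ndn pointed the other way, at 158, 307, 166 and 96.3 CPM in WT and at 377, 246, 355 and 285 CPM in hTau.P301S mice. All but WT 2 of the WT mice were below every hTau.P301S mouse, and the log2 fold change was 0.80 (SE 0.35, edgeR adjusted p = 0.598).

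In WT mice Peg10 ranged from 16.7 to 167 CPM and Magel2 from 1.03 to 25.8 CPM, each with its highest value in WT 2. Their log2 fold changes of -1.53 (SE 0.95) and -1.74 (SE 0.98) rested on that library: without WT 2 they were -0.46 and -0.36. Nap1l5 gave -0.53 (SE 0.31), Igf2 -0.87 (SE 1.18), Plagl1 0.27 (SE 0.60) and Nnat 0.0027 (SE 0.38). Without hTau.P301S 2 the Igf2 value was -2.76, and without WT 1 it was -0.38. Of the 8 genes beside Zdbf2, edgeR called 0 and DESeq2 0, against 0.00611% of all genes by edgeR and 116 of 30014 genes by DESeq2. An unadjusted p under 0.05 was found for 2 (Peg3 and Ndn) against 7.14%, and 1 (Peg3) did not overlap against 6.24%. The median over the 8 was -0.69, and 0.02 over all genes.

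In WT mice NR came with no difference that passed a test for any of the 9 genes. Zdbf2 gave a log2 fold change of 0.09 (SE 0.46), Peg3 0.05 (SE 0.36), Peg10 0.05 (SE 0.99) and Magel2 -0.28 (SE 1.10). Without WT + NR 3 the first 3 were -0.60, -0.49 and -1.79, and Peg10 was also below 0 without WT 1, WT 3 or WT 4. Ndn gave 0.71 (SE 0.49), and the others lay between -0.24 and 0.52. All 9 groups overlapped (against 0.754% of all genes that did not), all edgeR adjusted p-values were 0.99994, and 0 of the 9 were at an unadjusted p under 0.05 (0.79% of all genes). Over all genes edgeR called 0% here, 0 of 16714, with 132 at an unadjusted p under 0.05, and DESeq2 called 3. The standard errors of 0.36 to 1.10 leave room for changes as large as those seen in hTau.P301S mice for several genes.

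With NR in both genotypes, hTau.P301S + NR against WT + NR, Zdbf2 and the 8 others overlapped throughout (3.73% of all genes did not). Of the 8, 0 were called by edgeR (0.054% of all genes) or DESeq2 (56 of 31143 genes), and 0 were at an unadjusted p under 0.05 (6.09%). This comparison again shares mice with the preceding ones. Zdbf2 gave 0.39 (SE 0.46), Peg3 0.32 (SE 0.36, edgeR adjusted p = 0.858) and Peg10 0.77 (SE 0.80). Without WT + NR 3 these were 1.085, 0.86 and 2.61, and Peg10 passed with an edgeR adjusted p of 0.0054: its 3 other WT + NR mice were at 18.6, 15.5 and 22.2 CPM, all under the 72.4 CPM of the lowest hTau.P301S + NR mouse. Igf2 gave -1.81 (SE 0.98, edgeR adjusted p = 0.781), or -0.67 without WT + NR 4, the mouse with its highest level. The median over the 8 genes was 0.26, and -0.02 over all genes.

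The NR effect in hTau.P301S mice minus that in WT mice, fitted over all 16, was 1.53 (SE 0.59) for Zdbf2 on the log2 scale, a description because it holds the difference that chose the gene. Peg3 gave 1.16 (SE 0.48, edgeR adjusted p = 0.558), Peg10 2.29 (SE 1.34, with 1.23 without WT 2 and 4.14 without WT + NR 3), Magel2 2.15 (SE 1.37, with 0.78 without WT 2 and 3.74 without WT + NR 3), Nap1l5 0.73 (SE 0.56), Ndn -0.64 (SE 0.58), Nnat -0.17 (SE 0.55), Igf2 -0.96 (SE 1.63) and Plagl1 0.12 (SE 0.74). Without the 3 libraries that stand apart, Zdbf2 gave 1.96 and Peg3 1.495 (edgeR adjusted p = 0.079). Among all genes 0% were called by edgeR, with 7.92% (1390) at an unadjusted p under 0.05, and DESeq2 called 16. Of the 8 genes beside Zdbf2, 1 (Peg3) was at an unadjusted p under 0.05 and 0 were called by either tool. A difference between the genotypes in the response of these genes was thus not shown.

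Several marker lists were mostly higher, as Zdbf2 was, in hTau.P301S mice given NR. With NR in hTau.P301S mice the hippocampal neuron, choroid plexus and meninges lists were mostly lower (median log2 fold changes -0.27, -0.21 and -0.42). For genotype without NR the hypothalamic and striatal lists were lower, as Zdbf2 was, but the thalamic list was not. Choroid plexus (-1.13), meninges (-0.79) and endothelium (-0.54) markers were also mostly lower there. The hippocampal neuron, microglia and oligodendrocyte lists were mostly higher (0.41, 0.52 and 0.67). The hypothalamic marker sum was 18.0, 39.1, 24.0 and 75.2 CPM in hTau.P301S + NR mice and 33.7, 5.99, 9.26 and 4.99 CPM in hTau.P301S mice, ranges that overlap only through hTau.P301S 1. Of the 13 markers, 7 were tested by edgeR, 6 of them higher with NR and 0 called. At an unadjusted p under 0.05 there were 3 (42.9%, beside 12.9% of all genes). DESeq2 called 4 higher (Nkx2-1, Otp, Oxt and Trh), beside 243 of the 29160 genes it tested in this comparison. Individual genes of the list were low in these mice: Avp reached 24.3 CPM and Trh 22.7 CPM, both in hTau.P301S + NR 4, and Hcrt and Sim1 stayed under 1 CPM in all 4 NR-treated mice. Of the libraries with the high sums, WT + NR 3 had the highest Zdbf2 level of all 16 mice, 80.1 CPM, and WT 2 had 40.9 CPM, within the 9.15 to 58.5 CPM of the 14 others. Peg10 and Magel2, by contrast, were highest of all 16 mice in WT 2 and WT + NR 3, the libraries with the high hypothalamic sums. The thalamic sum (9 markers) was 238 to 484 CPM with NR and 173 to 316 CPM without, and the striatal sum (10 markers) 200 to 829 CPM and 174 to 236 CPM. All 10 striatal markers were higher with NR in hTau.P301S mice, with a median log2 fold change of 1.49. At an unadjusted p under 0.05 there were 7 (70%, beside 12.9% of all genes), with 0 called by edgeR and 2 by DESeq2. Of the 9 thalamic markers 8 were higher, 1 at an unadjusted p under 0.05 (11.1%, beside 12.9%) and 0 called by either tool. In hTau.P301S against WT without NR all 10 striatal markers were lower, with a median of -2.54. At an unadjusted p under 0.05 there were 6 (60%, beside 7.14% of all genes). EdgeR called 0 and DESeq2, among the 2 with an adjusted p, also 0. The 5 hypothalamic markers tested were lower too, with a median of -2.47, 2 (40%) at an unadjusted p under 0.05 and 0 called by edgeR. DESeq2 called Trh lower, beside 116 of the 30014 genes it tested there. Of the 9 thalamic markers 4 were higher and 5 lower, with a median of -0.0066. The highest striatal sums were those of WT 2 (2393 CPM) and hTau.P301S + NR 4 (829 CPM). The other WT mice were at 200 to 253 CPM and the other hTau.P301S + NR mice at 200 to 321 CPM. The marker fits were not repeated without WT 2. For the interaction the median of the striatal list was 3.15. The part of these regions in the result was not tested.

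**Figure D3:**
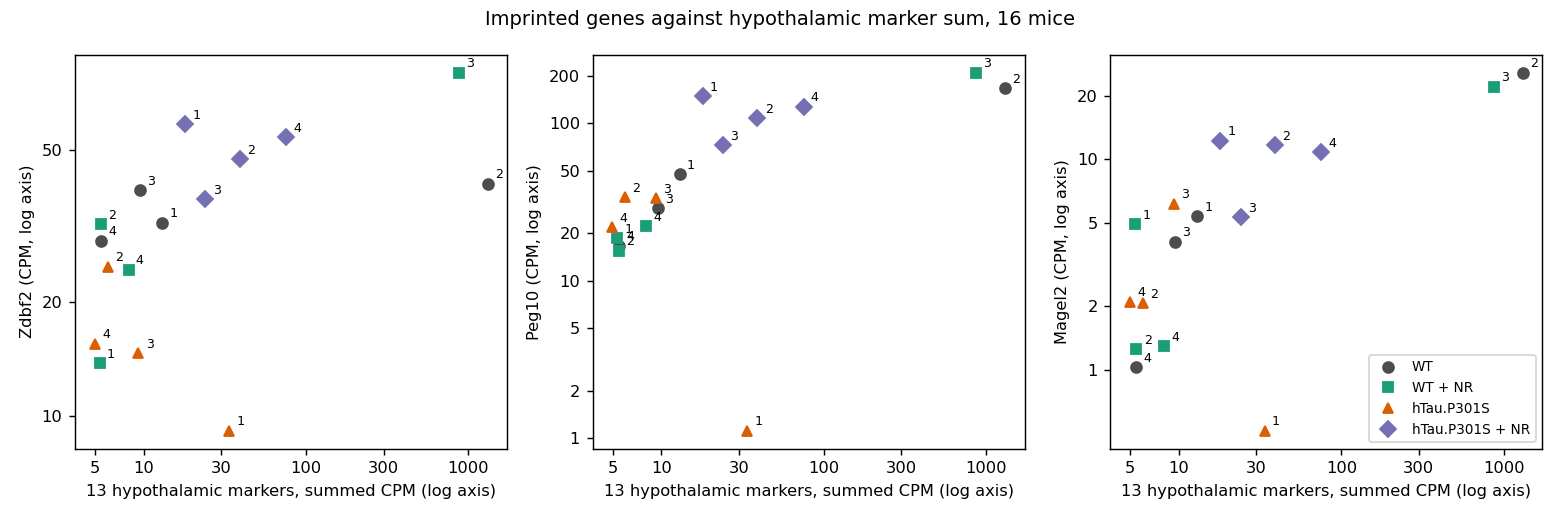
Summed CPM of 13 hypothalamic markers (horizontal, log axis) against the CPM of Zdbf2, Peg10 and Magel2 (vertical, log axis), 1 point per mouse with its replicate number. WT 2 and WT + NR 3 sit far to the right at 1313 and 871 CPM, where Peg10 and Magel2 are at their highest, and where Zdbf2 is at 40.9 CPM in WT 2 and at 80.1 CPM, its highest, in WT + NR 3.

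The sexes were also uneven. By Ddx3y, a Y-linked gene, against Xist, which is read from the inactive X, 1 of 4 WT, 1 of 4 WT + NR, 2 of 4 hTau.P301S and 3 of 4 hTau.P301S + NR mice were male. Among hTau.P301S males Zdbf2 was at 9.15 and 14.7 CPM without NR and at 58.5, 47.3 and 37.3 CPM with it. Among the females it was at 24.7 and 15.5 CPM without and at 54.1 CPM, in 1 mouse, with NR. The part of sex in the result was not tested. Choroid plexus genes, led by Ttr, were very uneven, with sums from 21.9 to 10162 CPM. The 3 mice with the highest Igf2, WT + NR 4 (9.99 CPM), WT 1 (4.93 CPM) and hTau.P301S 2 (4.56 CPM), had sums of 10162, 8183 and 4822 CPM, and Igf2 is a known product of choroid plexus. The part of the choroid plexus in the Igf2 differences was not tested.

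Per kilobase of exon, Nap1l5 and Nnat were the most abundant of the 9. Over the 16 mice the mean level was 206 ± 88.6 CPM per kb for Nap1l5, 195 ± 77.5 for Nnat and 76.0 ± 33.8 for Ndn (SD). Nap1l5 and Nnat did not differ beyond their spread. Peg3 followed at 23.0 ± 9.79 CPM per kb and Peg10 at 10.1 ± 9.68, and then Plagl1 at 3.35 ± 1.43, Zdbf2 at 2.73 ± 1.49, Magel2 at 1.58 ± 1.63 and Igf2 at 0.386 ± 0.461. Plagl1, Zdbf2 and Magel2 overlapped within their SDs, as did Magel2 and Igf2. Zdbf2 was thus a low gene of the hippocampus next to Peg3: per kilobase, Peg3 was 7.24 to 11.55 times Zdbf2 within a mouse, with a median of 8.79 over 16 mice, although each gene ranged over 6.55-fold (Peg3) and 8.76-fold (Zdbf2) between mice.

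Of the 17545 other symbols among the genes kept over all 16 mice, with a symbol listed more than once taken once, Peg3 had the level most like Zdbf2. Pearson's r of log2 CPM over the 16 mice was 0.98, Spearman's rho was 0.98, and r was 0.98 without hTau.P301S 1 and WT + NR 3, the mice farthest from the Zdbf2 median. The next 4 were Gm44644 (r = 0.95), a noncoding RNA on chromosome 7 at 60915550 to 60922910, Zim1 (0.94), Cxxc4 (0.93), a regulator of Wnt signaling, and Glra3 (0.93), a glycine receptor subunit; their r was 0.88 to 0.90 without those 2 mice. Zim1 is the imprinted, maternally read neighbor of Peg3. With each mouse taken as its deviation from its group mean, which removes the group differences, Peg3 was again first with r = 0.97. It was followed by Dnm3 (0.93), a dynamin of neurons, Ankrd34b (0.91), Gm44644 (0.91) and Fchsd2 (0.91), and these 4 fell to 0.75 to 0.86 without WT + NR 3 and WT + NR 1, against 0.92 for Peg3. These values describe 16 libraries that share cell makeup and depth, and no p is given.

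The other 7 genes were less like Zdbf2 in log2 CPM, in the order Peg10 (r = 0.84), Nap1l5 (0.83), Magel2 (0.68), Plagl1 (0.49), Igf2 (0.44), Nnat (0.17) and Ndn (0.14). In deviations from the group means Nap1l5 came to 0.88, rank 14 of all genes, and Peg10 to 0.75. Nap1l5 fell to 0.68 without WT + NR 3 and WT + NR 1, and Peg10 stayed at 0.75. Magel2 had an r of 0.90 with Peg10 and of 0.54 with its neighbor Ndn in log2 CPM, and of 0.86 and 0.79 in deviations from the group means. Magel2 and Peg10 were both highest in WT 2 and WT + NR 3 and both lowest in hTau.P301S 1. Their r was not repeated without those mice. Nnat was most like Ndn (0.48 in log2 CPM).

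**Figure D4:**
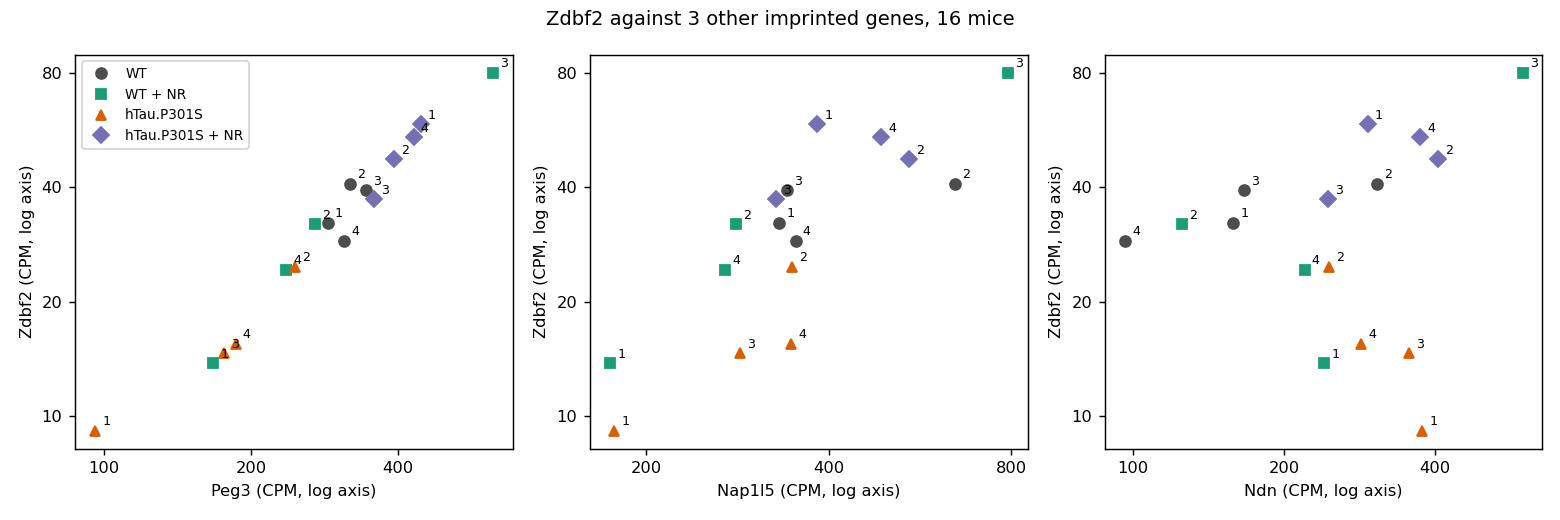
Zdbf2 in CPM (vertical, log axis) against Peg3, Nap1l5 and Ndn in CPM (horizontal, log axes), 1 point per mouse with its replicate number. The 16 points lie along a line for Peg3 (r = 0.98), more loosely for Nap1l5 (r = 0.83), and without order for Ndn (r = 0.14).

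Genes around Zdbf2 were followed to see whether the pattern reached beyond it. Of 34 genes annotated with a start within 500 kb of the Zdbf2 start, 11 were kept over all mice, Zdbf2 included. Of the 10 others, 0 passed for NR in hTau.P301S mice by edgeR or DESeq2, and 0 were at an unadjusted p under 0.05 in edgeR (12.9% of all genes). Gpr1, a G protein-coupled receptor gene that is imprinted in the same domain and starts 58.7 kb upstream, was under 1 CPM in the mean of each group and had a log2 fold change of 0.03 (SE 0.40). Adam23, a cell adhesion gene 172.6 kb downstream, gave 0.04 (SE 0.19) at 129 ± 20.7 CPM with NR and 126 ± 20.6 CPM without. Ino80d, a chromatin remodeling subunit gene 158.6 kb upstream, gave 0.81 (SE 0.42, edgeR adjusted p = 0.370), from 23.1 ± 12.4 to 40.5 ± 8.44 CPM. Ndufs1, a subunit of respiratory complex I, was lower in every NR-treated mouse, by a small step of -0.24 (SE 0.14, edgeR adjusted p = 0.387). It was the only gene of the 10 whose groups did not overlap, beside 11.9% of all genes. Eef1b2, a translation elongation factor gene, gave -1.37 (SE 0.67), with 291 ± 344 CPM in hTau.P301S and 115 ± 10.4 CPM in hTau.P301S + NR mice. The remaining 5 (Ino80dos, Gm20342, Mdh1b, Fastkd2 and 4933402D24Rik) lay between -0.0032 and 0.996. In hTau.P301S against WT without NR all 10 overlapped (6.24% of all genes did not), with log2 fold changes from -1.004 (4933402D24Rik) to 1.11 (Eef1b2).

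**Figure D5:**
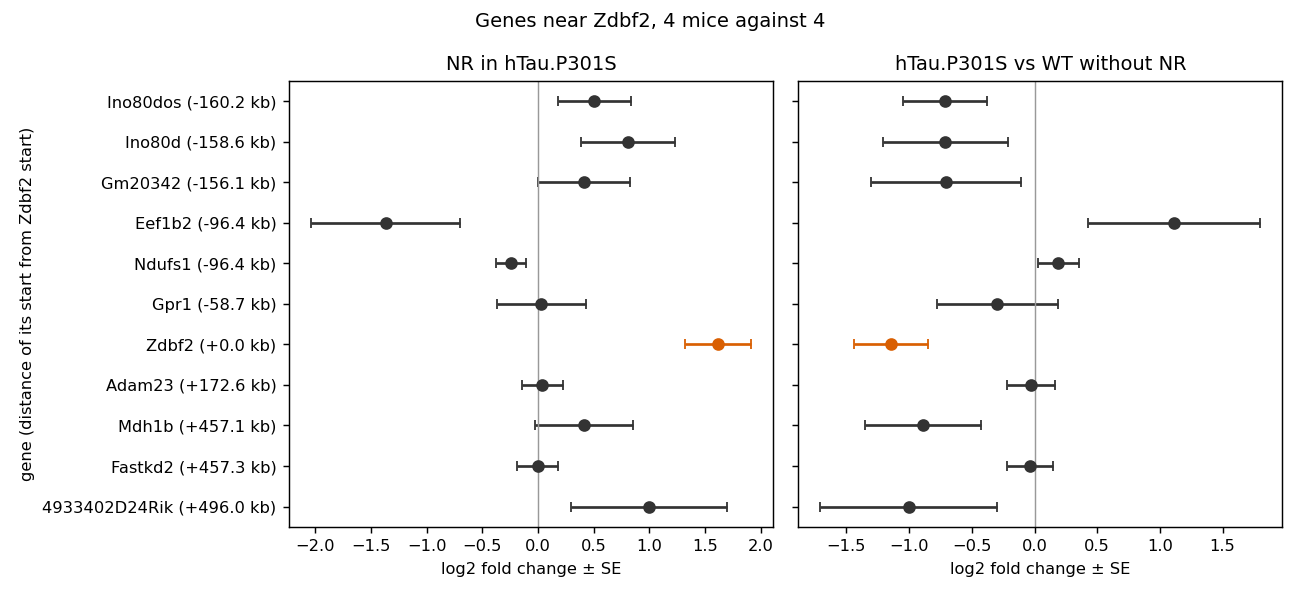
log2 fold change with its SE (horizontal axis) for the 11 kept genes near Zdbf2, in order of the distance of their start from the Zdbf2 start (rows), for NR in hTau.P301S mice (left) and hTau.P301S against WT without NR (right). Zdbf2 (orange) is at 1.62 and -1.14; Gpr1 and Adam23, the kept genes nearest to it on either side, are at 0.03 and 0.04 on the left.

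Among 57 further imprinted genes, 46 were tested for NR in hTau.P301S mice and edgeR called 0, while DESeq2 called 3 higher; before adjustment 11 had a p under 0.05 on the higher side and 3 on the lower, together 30.4% of those tested beside 12.9% of all genes, and the median log2 fold change was 0.09. The 3 with the smallest p among those that did not overlap were Zim1, Calcr and Asb4, the same 3 that DESeq2 called. Over all genes DESeq2 called 243 of 29160 for NR in hTau.P301S mice and 116 of 30014 for genotype without NR. Zim1, a zinc finger protein gene next to Peg3, gave 1.86 (SE 0.35, edgeR adjusted p = 0.260), from 2.85 ± 1.07 to 10.5 ± 3.06 CPM. Calcr, the calcitonin receptor (3.61, SE 0.72), and Asb4, an adaptor of a ubiquitin ligase (2.70, SE 0.73), lie in the imprinted region of Peg10. Both were under 1 CPM in every hTau.P301S mouse, with at most 6 and 18 counts, and at 1.01 to 2.45 and 1.68 to 5.27 CPM with NR. Their highest single values were 10.3 and 16.1 CPM, in the WT group. In hTau.P301S against WT without NR, 45 were tested and edgeR called 0, DESeq2 called 2 lower (Rtl1 and Meg3), and before adjustment 2 had a p under 0.05 on the higher side and 6 on the lower (17.8% together, beside 7.14% of all genes), with a median of -0.18; Rtl1, a retrotransposon-derived gene (-1.96, SE 0.44), Zim1 (-1.38, SE 0.40) and Slc22a3, a transporter of organic cations (-1.85, SE 0.68), led by the same rule. For NR in WT mice and for the genotypes with NR, 46 were tested each, with 0 called by edgeR or DESeq2, 1 in each (2.17%, beside 0.79% and 6.09% of all genes) at an unadjusted p under 0.05, and medians of -0.05 and 0.04.

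Genes tied to imprint upkeep were counted last, a mixed list that set, keep or remove DNA methylation or act on chromatin. Of 26, 23 were tested for NR in hTau.P301S mice: 19 were higher and 4 lower, 3 (13%, beside 12.9% of all genes) had an unadjusted p under 0.05, and 0 were called by edgeR or DESeq2, with a median of 0.42. Tet1, which oxidizes methylcytosine, gave 0.68 (SE 0.23, edgeR adjusted p = 0.367), from 6.49 ± 1.10 to 10.5 ± 2.25 CPM. Dnmt3a, a de novo methyltransferase, gave 0.61 (SE 0.22, edgeR adjusted p = 0.367), from 42.5 ± 12.8 to 64.9 ± 3.02 CPM. In hTau.P301S against WT without NR 20 of the 23 were lower, 3 of them at an unadjusted p under 0.05 (13%, beside 7.14% of all genes) and 0 called by either tool, with a median of -0.25. Zfp57, whose protein binds the hexamer shown above, stood at 1.30 ± 0.640 CPM in hTau.P301S and 3.83 ± 2.27 CPM in WT mice, with -1.54 on the log2 scale (SE 0.52, edgeR adjusted p = 0.598). Trim28, its corepressor, gave 0.30 (SE 0.15), from 125 ± 8.94 CPM in WT to 154 ± 6.44 CPM in hTau.P301S mice. For NR in WT mice and for the genotypes with NR the medians over 24 tested genes were -0.0025 and 0.05, with 0 called by either tool and 0 and 1 at an unadjusted p under 0.05.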

How the data were processed

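Hippocampal mRNA of 16 mice was sequenced. The authors trimmed reads (FastQC and Trim Galore), used STAR for alignment (mm10) and RSEM for counting, and deposited raw whole-number counts per gene; versions and the strand setting were not given in the sources used here. Library totals were 16490300 to 21915400. From the counts, edgeR 4.0.16 (R 4.3.3) was run over all genes that passed filterByExpr, with TMM scaling and the quasi-likelihood test, 8 mice per pairwise comparison and 16 for the interaction, with Benjamini-Hochberg adjustment. A call needed an adjusted p under 0.05 and, between groups, an absolute log2 fold change over 0.5. Alternatives used DESeq2 1.42.0, its size factors, no filter, a replicate block, no mitochondrial genes, all groups in a joint fit, and each mouse left out. Levels are CPM; log2 CPM used a prior count of 2. The edgeR step was tested on simulated data.

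The members and lists were chosen with earlier results of these data known. Beyond the 9 members, the text names imprinted genes that were called and, in each comparison, up to 3 of smallest p whose groups did not overlap, likewise up to 2 maintenance genes, kept genes within 500 kb of Zdbf2, and the 5 most correlated genes. Hypothalamic and choroid plexus genes named individually, the ratio of Peg3 to Zdbf2 and the promoter hexamer were chosen after values were seen. P-values set a difference between groups against the spread between mice. The SE of an edgeR log2 fold change was its absolute value divided by the square root of the test's F statistic. No columns of other series were found.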

Additional observations from a re-analysis of the deposited data

Results flagged for a closer look

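Of 36 sets of 4 mice (9 genes in 4 groups), 2 held a mouse whose gap to its nearest neighbor exceeded Dixon's 95% critical share of the range; chance alone marks about 1 in 20 sets. Peg10 in WT + NR 3 stood at 210.2 CPM, while the other 3 WT + NR mice were at 15.5 to 22.2 CPM. Nap1l5 in WT 2 stood at 646 CPM, while the other 3 WT mice were at 332 to 353 CPM. These are the libraries with the high hypothalamic marker sums (871 and 1313 CPM); the part of those cells in the 2 values was not tested.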

How the results depend on the processing

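For Zdbf2, Peg3, Peg10, Magel2 and Nap1l5 the direction of the NR difference in hTau.P301S mice, of the genotype difference without NR and of the interaction held under every alternative run; for NR in hTau.P301S the ranges were 1.44 to 1.91, 1.02 to 1.42, 1.95 to 2.67, 1.55 to 2.65 and 0.43 to 0.71 on the log2 scale, and for the interaction 1.26 to 2.23, 0.95 to 1.71, 1.23 to 4.14, 0.78 to 3.74 and 0.45 to 1.39. The size of the genotype difference for Peg10, Magel2 and Nap1l5 fell to -0.07, -0.04 and -0.08 once the libraries that stand apart were removed, an alternative chosen after the data were seen. Of genes called over the whole table, NR in hTau.P301S gave 1, with 243 by DESeq2, 2 with all groups fitted jointly, 0 with the replicate block and 0 to 33 with a mouse left out (33 without hTau.P301S 1). The genotype comparison without NR gave 1, with 116 by DESeq2, 5 without the filter, 3 with the replicate block, 36 jointly, 23 without the libraries that stand apart and 1 to 14 with a mouse left out (14 without hTau.P301S 1). NR in WT gave 0, with 3 by DESeq2. The genotype comparison with NR gave 9, with 56 by DESeq2, 15 without the filter, 4 with the block and 8 to 31 with a mouse left out (31 without WT + NR 3). The interaction gave 0, with 16 by DESeq2, 3 without the libraries that stand apart and 0 to 1 with a mouse left out (1 without hTau.P301S 3). The causes were not tested.

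Directions that turned were all of values that passed no test. With a mouse left out, NR in hTau.P301S ranged from -0.048 to 0.19 for Ndn, -1.22 to 1.45 for Igf2 and -0.088 to 0.55 for Plagl1. The genotype difference without NR ranged from -0.26 to 0.30 for Nnat and -0.032 to 0.61 for Plagl1. NR in WT ranged from -0.60 to 0.36 for Zdbf2, -0.49 to 0.26 for Peg3, -1.79 to 1.12 for Peg10, -1.84 to 1.11 for Magel2, -0.67 to 0.087 for Nnat, -0.79 to 0.16 for Nap1l5, -0.62 to 1.03 for Igf2 and -0.18 to 0.43 for Plagl1. The genotype difference with NR ranged from -0.41 to 0.26 for Nnat, -0.030 to 0.85 for Nap1l5 and -0.10 to 0.76 for Ndn, and the interaction from -0.49 to 0.28 for Nnat, -0.23 to 0.45 for Plagl1 and -1.74 to 0.91 for Igf2. Nnat without NR between genotypes turned to -0.020 by DESeq2, -0.0043 with its size factors, -0.038 without the filter and -0.0014 jointly. Without the libraries that stand apart, NR in WT was -0.52 for Zdbf2, -0.48 for Peg3, -0.73 for Peg10 and -0.0028 for Plagl1, and the interaction was 0.20 for Nnat and -0.087 for Plagl1.

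Same-numbered mice are different animals, and their deviations from the group means correlated at -0.54 to 0.29. The main fits did not pair them, and whether the numbers carry a pairing was not tested. With the replicate block, NR in hTau.P301S turned to 0.52 for Igf2, NR in WT to -0.20 for Zdbf2, -0.14 for Peg3 and -0.41 for Peg10, and the genotype difference with NR to 0.0079 for Nnat.

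With 4 mice per group, and single libraries that carry hypothalamic or choroid plexus genes, standard errors ran from 0.23 to 1.63 on the log2 scale. Counts were as low as 0 for Igf2 and 6 for Magel2; what set the errors was not tested.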
